A study of Mus musculus with 20 samples.

Results

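H3K4me1 was compared between Ep300-deleted and Ep300/Tet2 double-deficient lineage-negative (Lin-) bone marrow cells, so the comparison shows how the map of this mark differed between p300-deficient cells with and without Tet2. Regions were taken from the autosomal H3K4me1 peaks of both genotypes. The 89936 peaks of Ep300Δ/Δ cells and the 92348 peaks of Ep300Δ/ΔTet2-/- cells were merged into 109169 regions, of 129955 regions that the 12 peak lists of the series make when merged together. A region was lost when no Ep300Δ/ΔTet2-/- peak overlapped it by 1 bp, gained when no Ep300Δ/Δ peak did, and retained otherwise.

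The 4 genotypes were WT (Ep300fl/fl), Ep300Δ/Δ (Mx1-Cre;Ep300fl/fl), Tet2-/- (Ep300fl/fl;Tet2-/-) and Ep300Δ/ΔTet2-/- (Mx1-Cre;Ep300fl/fl;Tet2-/-). All were C57BL/6 mice of either sex and all received poly(I:C), an inducer of interferon, at 6 to 8 weeks of age. The Mx1 promoter that drives Cre responds to interferon in blood cells and in other tissues, so Ep300 was deleted in the adult, whereas Tet2 was absent throughout life. Lin- cells are what remains of marrow after cells with antigens of mature lineages are depleted, a mixture rich in stem and progenitor cells. Experiments were done 2 weeks after poly(I:C) unless another time was stated, and none is stated for the chromatin. The number of mice behind each chromatin preparation is not given in the sources used here.

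Each genotype and mark had 1 library. There was no replicate spread to compare a difference with, and no test was made. The range in parentheses after a share is its 95% Clopper-Pearson (exact) interval and allows for counting error alone. Peak lists do not hold the sequencing depth, which is unknown here. In a mixture of cells, fewer cells that carry a mark and less of the mark per cell cannot be told apart. The peak lists gave no check of the deletions, since H3K4me1 peaks were present within Tet2 and Ep300 in all 4 genotypes. With regions given to the nearest protein-coding start at any distance, 248 of the 264 listed genes of all kinds had an H3K4me1 region. Among them were all 22 listed regulators of stem and progenitor cells, all 20 neutrophil genes and 18 of 20 B-lymphoid genes. These counts are therefore no measure of the cells present.

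H3K4me1 is deposited mainly by KMT2C and KMT2D and lies at enhancers and on the flanks of promoters, whether or not these are active. H3K27ac, which p300 and its paralog CBP deposit, is found at active enhancers and promoters, so that an H3K4me1 region without H3K27ac is commonly called primed or poised. TET2 oxidizes 5-methylcytosine, and its loss in blood cells is known for increased methylation at enhancers. In hematopoiesis GATA factors direct erythroid and megakaryocytic genes, PU.1 directs myeloid and lymphoid genes, and RUNX1 acts in stem cells and in several lineages.

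The regions with the highest fold enrichment whose H3K4me1 went the same way with Tet2 on both backgrounds were read first, because they are the clearest examples of each class. Those gained here with a peak in Tet2-/- but not WT cells were led by a region at a promoter of Ahcyl2 (chr6:29902509-29902629, 11.7-fold over H3) and a region in an exon of Pik3r3 (chr4:116301031-116301151, 10.5-fold). The nearest protein-coding starts were those of Strip2, 14203 bp away, and Pik3r3, 79213 bp away, and the first is named after Strip2 where its sequence is printed. Those lost here with a peak in WT but not Tet2-/- cells were led by a region at 1700013F07Rik (chr3:108537539-108537659, 9.07-fold) and a region at Rwdd4a (chr8:47534649-47534769, 8.81-fold). None of the 4 had an H3K27ac peak in any genotype, and all lay over 1000 bp from the nearest peak of the other list. The bases around the summit of a gained and a lost region are printed, 60 on either side, from the plus strand of GRCm38 (mm10), with matches to any of the 12 motifs searched in capitals.
Strip2: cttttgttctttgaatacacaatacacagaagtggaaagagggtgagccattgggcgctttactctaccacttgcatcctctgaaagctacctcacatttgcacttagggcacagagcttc
Rwdd4a: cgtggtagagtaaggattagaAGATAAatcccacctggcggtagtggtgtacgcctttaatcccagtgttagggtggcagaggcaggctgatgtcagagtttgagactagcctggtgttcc
The Rwdd4a sequence holds AGATAA, the consensus of GATA factors, and the Strip2 sequence holds no match.

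The GATA consensus and the PU.1 and ETS consensus GAGGAAGT were the matches that differed most between lost and gained regions. The strongest regions of each kind outside promoters, limited to those over 1000 bp from the other list, are printed next, chosen after their values were seen. Each is named after the nearest protein-coding start, between 8953 and 92520 bp away. The GATA-bearing lost regions lay in introns and were those of Snx3 (chr10:42511316-42511436, 7.40-fold), Frmd4b (chr6:97405492-97405612, 7.27-fold) and Stag1 (chr9:100736369-100736489, 7.10-fold). The gained regions with GAGGAAGT were those of Nsd1 (chr13:55248985-55249105, intron, 7.22-fold), Cd200r3 (chr16:45016634-45016754, intergenic, 6.39-fold) and Add3 (chr19:53208964-53209084, intron, 6.39-fold). A lost region 3632 bp from a start of Rhag, a component of the red cell ammonium channel complex, is added as an erythroid example with AGATAA (chr17:40807338-40807458, 6.04-fold). It lay at a promoter, unlike the 6 above, and is not typical of erythroid losses. AGATAA was absent around the summit of the next lost region of Rhag (5.40-fold). It was also absent at the leading lost regions of Ank1, another erythroid gene (6.61-fold and 5.16-fold). Outside promoters, 3 of 26 lost erythroid regions held it within 100 bp of the summit. A gained region 4835 bp from a start of Mpo, the gene of neutrophil myeloperoxidase, is added as a myeloid example (chr11:87788547-87788667, 4.78-fold). All are from the plus strand of GRCm38. Capitals mark the GATA match in the first 3, the PU.1 and ETS match in the next 3, either one read on the strand where it was found, and any of the 12 motifs in the Rhag and Mpo regions.
Snx3: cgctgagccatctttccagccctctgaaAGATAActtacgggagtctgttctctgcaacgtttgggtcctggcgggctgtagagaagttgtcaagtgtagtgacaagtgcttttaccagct
Frmd4b: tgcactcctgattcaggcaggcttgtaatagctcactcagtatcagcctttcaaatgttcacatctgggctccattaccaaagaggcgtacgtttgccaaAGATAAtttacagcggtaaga
Stag1: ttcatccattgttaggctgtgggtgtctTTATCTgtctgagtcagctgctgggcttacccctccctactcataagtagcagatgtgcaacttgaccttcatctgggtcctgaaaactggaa
Nsd1: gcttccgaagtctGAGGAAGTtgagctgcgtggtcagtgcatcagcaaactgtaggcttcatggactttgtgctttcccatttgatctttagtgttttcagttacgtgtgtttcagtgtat
Cd200r3: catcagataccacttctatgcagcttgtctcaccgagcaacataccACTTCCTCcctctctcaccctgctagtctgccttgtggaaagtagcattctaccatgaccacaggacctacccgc
Add3: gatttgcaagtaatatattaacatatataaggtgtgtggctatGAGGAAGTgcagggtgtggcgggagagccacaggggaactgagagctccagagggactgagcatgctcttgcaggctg
Rhag: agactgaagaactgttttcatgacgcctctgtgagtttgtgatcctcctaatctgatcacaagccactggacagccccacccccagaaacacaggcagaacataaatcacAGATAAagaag
Mpo: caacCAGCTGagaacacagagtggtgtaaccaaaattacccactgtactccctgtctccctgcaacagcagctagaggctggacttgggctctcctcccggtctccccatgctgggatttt
TTATCT in the Stag1 region is AGATAA on the minus strand, and ACTTCCTC in the Cd200r3 region is GAGGAAGT on the minus strand. None of the first 6 regions had an H3K27ac peak in any genotype. The Rhag region had one in WT, Tet2-/- and Ep300Δ/ΔTet2-/- cells but not in Ep300Δ/Δ cells, so there the acetylation call and the H3K4me1 call went opposite ways. The capitals of the Mpo region mark CAGCTG, the E-box that often accompanies GATA.

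H3K4me1 was lost at 21881 regions, 26.1% of the 83688 with a peak in Ep300Δ/Δ cells (25.8% to 26.4%). It was gained at 25481 regions, 29.2% of the 87288 with a peak in Ep300Δ/ΔTet2-/- cells (28.9% to 29.5%), and it was retained at 61807. Gains exceeded losses at 1.16 gained regions per lost region. The same ratio ran from 0.998 on chromosome 19 to 1.29 on chromosome 1, so no chromosome carried the excess alone. Changed regions were small. The median width was 285 bp for lost, 299 bp for gained and 676 bp for retained regions, and lost and gained regions covered 7.28 and 8.81 Mb against 55.3 Mb of retained ones. Of the lost regions 49.5% lay within 1000 bp of a peak of the other list, as did 45.2% of the gained ones, so about as many calls changed beside a peak of the other list as away from one.

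Changes were concentrated among weak peaks. When the regions of each genotype were ranked by their highest fold enrichment over H3 and divided into 4 bins of equal size, 6.24% (5.91% to 6.57%) of the strongest bin of Ep300Δ/Δ regions were lost and 39.5% (38.8% to 40.1%) of the weakest. In Ep300Δ/ΔTet2-/- cells, 9.01% (8.64% to 9.40%) of the strongest bin were gained and 43.7% (43.1% to 44.4%) of the weakest. In every bin the gained share was the higher one. The lists also differed in how many peaks were called with confidence: 40641 Ep300Δ/Δ and 52821 Ep300Δ/ΔTet2-/- peaks had a −log10 q of at least 5. The excess of gains moved with that difference, with 2.26 gained regions per lost region among such peaks. The part of the difference in peak strength in the excess of gains was not tested.

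**Figure D1:**
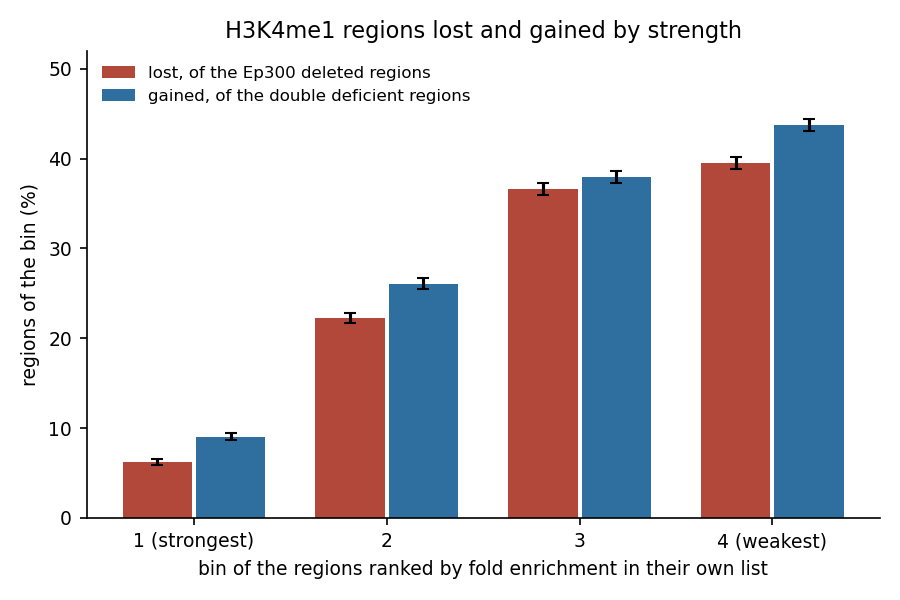
Share of regions lost, of all regions with a peak in Ep300Δ/Δ cells, and gained, of all regions with a peak in Ep300Δ/ΔTet2-/- cells, in percent, for each of 4 bins of the regions ranked by fold enrichment over H3 within their own list. Bars are shares and lines are exact 95% intervals. The lost share runs from 6.24% in the strongest to 39.5% in the weakest bin, and the gained share from 9.01% to 43.7%.

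Most regions of each class had no H3K27ac peak in either genotype, and the changed regions had one less often than the retained ones. Neither list had an H3K27ac peak at 92.5% of lost regions (92.1% to 92.8%), 93.0% of gained regions (92.7% to 93.3%) and 78.6% of retained regions (78.3% to 78.9%). Both lists had one at 988 lost regions (4.52%), 1003 gained regions (3.94%) and 7469 retained regions (12.1%). Retained regions were wider, with a median of 676 bp against 285 and 299 bp for lost and gained ones. A wider region has more room for an overlap of 1 bp with any list. The part of width in these shares, and in the later ones of other lists, was not tested. Where acetylation was called in 1 of the genotypes, its call tended to go with the H3K4me1 call. At lost regions H3K27ac was called in Ep300Δ/Δ cells alone at 442 and in Ep300Δ/ΔTet2-/- cells alone at 213. At gained regions these numbers were 203 and 572. At retained regions they were 3548 and 2202. Thus Ep300Δ/ΔTet2-/- cells held 73.8% (70.6% to 76.9%) of such calls at gained regions, 32.5% (28.9% to 36.3%) at lost regions and 38.3% (37.0% to 39.6%) at retained regions. The H3K4me1 and H3K27ac lists of a genotype were called against the same H3 library, so they are not independent of each other, and the part of that library in these shares was not tested. The H3K27ac list of Ep300Δ/Δ cells also held more weak peaks. In it 1606 of 22190 peaks had q above 0.05, against 140 of 17846 in Ep300Δ/ΔTet2-/- cells.

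Acetylation of the changed regions was concentrated at promoters (within 3000 bp of any annotated transcript start). Outside promoters, neither list had an H3K27ac peak at 98.0% of lost, 97.6% of gained and 85.5% of retained regions. The H3K27ac list of Ep300Δ/Δ cells reached 1.59% (1.38% to 1.82%) of the lost regions there, and that of Ep300Δ/ΔTet2-/- cells 1.95% (1.74% to 2.18%) of the gained ones. Those shares were higher in the WT list, at 4.45% (4.10% to 4.83%) of lost and 4.36% (4.05% to 4.69%) of gained regions. Retained regions outside promoters were acetylated in 21% in WT, 11.6% in Ep300Δ/Δ, 15.7% in Tet2-/- and 9.56% in Ep300Δ/ΔTet2-/- cells. The difference between changed and retained regions was also present among strong peaks. In the strongest bin, 9.89% (8.32% to 11.6%) of lost and 28.8% (28.2% to 29.4%) of retained regions had an H3K27ac peak in Ep300Δ/Δ cells. In Ep300Δ/ΔTet2-/- cells, 7.73% (6.59% to 9.0%) of the strongest gained and 22.4% (21.8% to 23.0%) of the strongest retained regions had one.

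**Figure D2:**
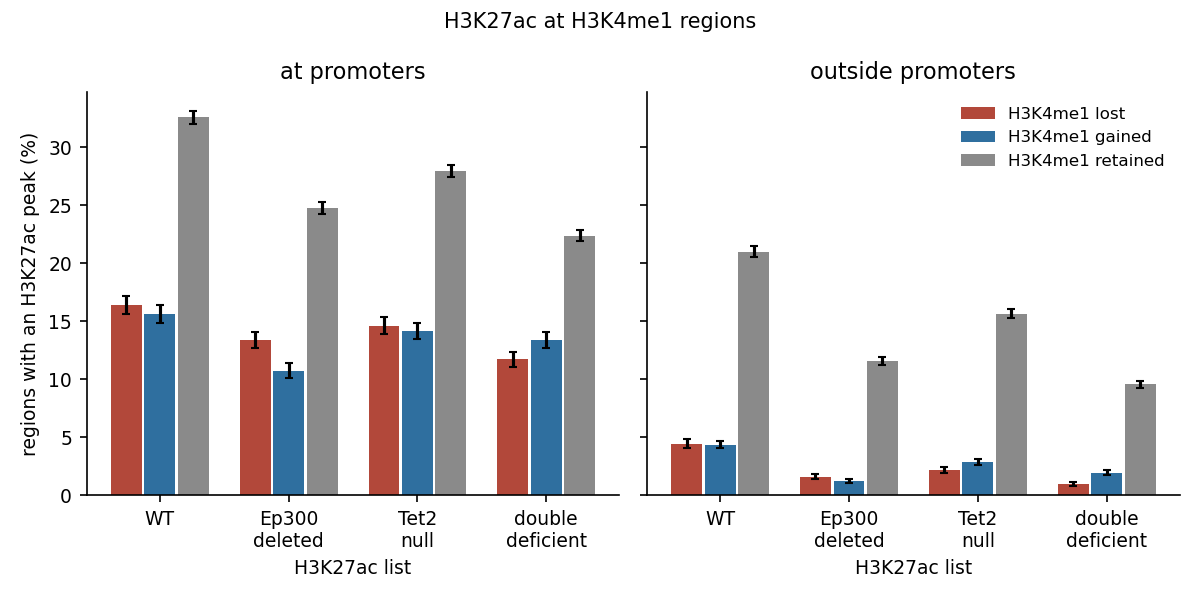
Percent of H3K4me1 regions with an H3K27ac peak in the list of each of the 4 genotypes, at promoters (left) and outside promoters (right), for lost, gained and retained regions. Bars are shares and lines are exact 95% intervals. Outside promoters the lost and gained bars lie under 5% in each list, while the retained bars run from 9.56% to 21%.

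Regions were also read from the side of acetylation. Of the 2740 H3K27ac regions outside promoters that were lost from Ep300Δ/Δ to Ep300Δ/ΔTet2-/- cells, 85.4% (84.1% to 86.7%) overlapped a retained H3K4me1 region and 4.93% (4.15% to 5.81%) a lost one. Of the 2543 with H3K27ac in both genotypes, 89.1% (87.8% to 90.3%) overlapped a retained, 2.95% (2.33% to 3.68%) a lost and 5.47% (4.61% to 6.42%) a gained H3K4me1 region, so changed and unchanged acetylation both lay mostly on retained H3K4me1. Of the 1557 gained there, 71.2% (68.8% to 73.4%) overlapped a retained and 10.4% (8.93% to 12%) a gained H3K4me1 region, and 16.4% (14.6% to 18.3%) overlapped none. H3K4me3 is a mark of promoters. At promoters its peaks lay on 34.8% of lost regions in Ep300Δ/Δ and 32.5% in Ep300Δ/ΔTet2-/- cells, and on 29.5% and 32.2% of gained regions. The corresponding shares of retained regions were 54.2% and 54.5%.

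The WT and Tet2-/- H3K4me1 lists, which had no part in defining the classes, show what the same regions looked like with Ep300 intact. Retained regions had a peak in both lists at 80.2% (79.9% to 80.5%) and in neither at 4.93%. Lost regions had a peak in both at 30.9%, in WT cells alone at 19.9%, in Tet2-/- cells alone at 14.9% and in neither at 34.4%. Gained regions had a peak in both at 33.8%, in WT cells alone at 12.6%, in Tet2-/- cells alone at 20.7% and in neither at 32.8%. The largest groups of changed regions were thus those in which Tet2 made no difference to the call while Ep300 was intact. Among regions called in only 1 of WT and Tet2-/- cells, the Tet2-/- list held 62.1% (61.1% to 63.2%) at gained, 42.8% (41.7% to 43.9%) at lost and 55.5% (54.5% to 56.5%) at retained regions. With regions over 1000 bp from the other list, the shares were 63.5% at gained and 39.7% at lost regions.

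**Figure D3:**
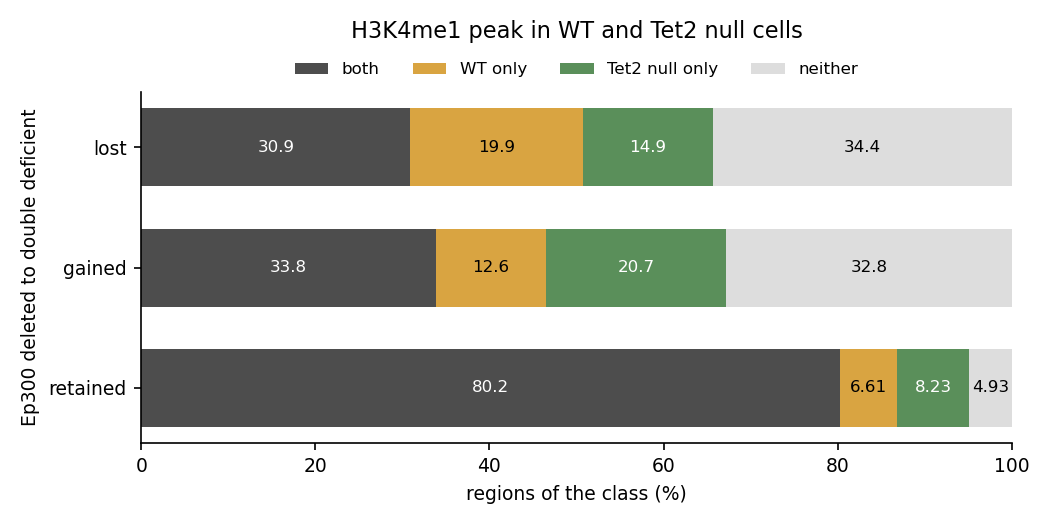
H3K4me1 peaks of WT and Tet2-/- cells at the regions lost, gained and retained from Ep300Δ/Δ to Ep300Δ/ΔTet2-/- cells, as percent of the regions of each class with a peak in both lists, in WT cells only, in Tet2-/- cells only or in neither. Retained regions are mostly in both (80.2%), the WT-only part is larger than the Tet2-null-only part at lost regions (19.9% and 14.9%), and the reverse holds at gained regions (12.6% and 20.7%).

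Changes with Tet2 were shared between the backgrounds at some of the regions. From WT to Tet2-/- cells 27334 regions were lost and 24734 gained, 0.905 gained per lost region, so the balance was on the other side. Of the regions gained there, 19.1% (18.6% to 19.6%) overlapped a region gained from Ep300Δ/Δ to Ep300Δ/ΔTet2-/- cells, 11.7% (11.3% to 12.1%) a lost one, 23.4% a retained one and 46.8% none. Of the regions lost there, 15.2% (14.7% to 15.6%) overlapped a lost and 11.4% (11.0% to 11.8%) a gained region, 18.7% a retained one and 55.2% none. As a reference, regions retained from WT to Tet2-/- cells overlapped a gained region in 13.2% (13% to 13.5%) and a lost one in 10.6% (10.3% to 10.8%). The other marks of the same pair of genotypes had other balances, with 0.496 gained per lost region for H3K27ac (31.4% lost, 18.5% gained) and 1.30 for H3K4me3 (10.5% lost, 13.2% gained). With 1 library each, these differences between pairs and marks were not tested.

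Gained regions lay farther from genes than lost ones. The median distance to a protein-coding start was 13.5 kb for gained, 9.82 kb for lost and 8.31 kb for retained regions. Promoters held 37.0% (36.5% to 37.6%) of gained, 41.9% (41.3% to 42.6%) of lost and 47.5% (47.1% to 47.9%) of retained regions, and intergenic sequence held 23.6%, 18.4% and 17.7%. The gained share of Ep300Δ/ΔTet2-/- regions increased with distance, from 12.1% (11.2% to 13%) on a protein-coding start to 37.9% (36.7% to 39.2%) over 100 kb from one. The lost share of Ep300Δ/Δ regions was 11.9% (11.0% to 12.8%) on a start and between 27.1% and 29.2% in every distance class beyond 1 kb. Base composition differed less. The median region held 1.35 CpG per 100 bases in the lost, 1.35 in the gained and 1.43 in the retained class. Windows of 100 bp on either side of the summit that were mostly soft-masked repeat made up 11.0% of lost, 10.9% of gained and 6.82% of retained regions.

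The sequence under the summits set lost regions apart from gained ones at GATA. Regions outside promoters were searched for the 12 motifs on either strand, up to 100 bp from the summit. AGATAA was found in 10.6% of lost (10.0% to 11.1%), 8.20% of gained (7.78% to 8.63%) and 7.87% of retained regions (7.58% to 8.17%), and in 8.52% of all 61223. The higher share at lost regions was present at each strength: from the strongest to the weakest bin it was 12.9%, 10.9%, 10.2% and 10.4% of lost regions, against 8.22%, 8.51%, 7.51% and 6.85% of retained regions. In gained regions it was between 7.87% and 8.36% in all 4 bins. Outside repeats the shares were 10.9% for lost, 8.42% for gained and 8.0% for retained regions. Lost regions with a WT but no Tet2-/- peak had AGATAA in 12% (10.7% to 13.3%), and lost regions with a peak in neither had it in 11.3% (10.3% to 12.2%). From WT to Tet2-/- cells it was found in 8.65% of lost and 8.62% of gained regions, intervals that overlap almost wholly. The median GC content of the same windows was 50.2% in lost, 50.7% in gained and 51.7% in retained regions, and its part in the GATA shares was not tested.

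GAGGAAGT, a site shape of PU.1 and other ETS factors, was found in 3.03% of gained (2.77% to 3.31%), 2.08% of lost (1.84% to 2.34%) and 2.29% of retained regions (2.13% to 2.46%), and in 2.44% of all. Its GGAAGT is also part of the general ETS core CCGGAAGT, which was rare (0.354% of all regions) and did not separate the classes (0.378% of lost and 0.337% of gained regions). Gained regions over 1000 bp from the other list had GAGGAAGT in 3.69% (3.32% to 4.09%) and lost ones in 2.46% (2.11% to 2.86%). The same order was present from WT to Tet2-/- cells, with 2.72% of gained and 2.07% of lost regions. Within 250 bp of the summit the shares were 8.29% of gained, 5.30% of lost and 8.05% of retained regions, so at that width the lost regions were the ones that stood apart. TGTGGTT, the RUNX consensus, was found in 6.43% (6.05% to 6.82%) of gained, 5.81% (5.41% to 6.24%) of lost and 5.74% of retained regions, and in 5.94% of all. From WT to Tet2-/- cells it was in 6.73% of gained and 5.14% of lost regions. AACTGCC, the consensus of MYB, was in 3.70% of gained, 3.14% of lost, 3.73% of retained and 3.60% of all regions.

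The remaining motifs differed less between lost and gained regions. The CEBP shape TTGCNNAA was in 7.32% of lost, 7.64% of gained and 7.20% of all regions, and the IRF shape GAAANNGAA in 4.71%, 4.94% and 4.76%. The AP-1 shape TGANTCA was in 6.40% of lost, 6.76% of gained and 6.55% of all, and CAGCTG in 15.1%, 15.2% and 16.0%. The CTCF stretch CCACNAGG was in 3.93%, 3.83% and 4.14%, the GC box GGGCGGG in 2.11%, 2.37% and 2.42%, and the CRE TGACGTCA in 0.212%, 0.181% and 0.176%. A match is a run of letters and not a bound site.

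**Figure D4:**
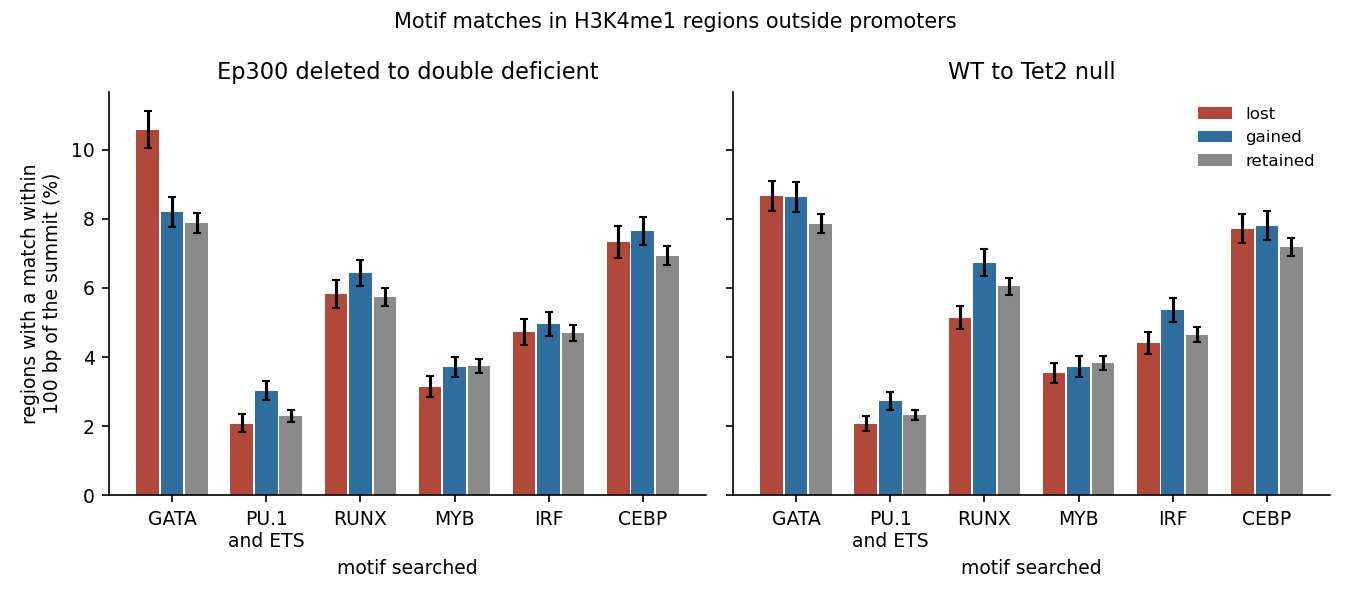
Percent of regions outside promoters with a match to each of 6 motifs within 100 bp of the summit, for lost, gained and retained regions from Ep300Δ/Δ to Ep300Δ/ΔTet2-/- cells (left) and from WT to Tet2-/- cells (right). Bars are shares and lines are exact 95% intervals. GATA is found in 10.6% of lost regions on the left and in 8.65% on the right.

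Regions were given to the nearest protein-coding start, which gave 15373 genes a region. Of these, 58.5% had at least 1 lost and 62.8% at least 1 gained region, so a change near a gene was the rule. A gene's regions can lie far from it under this assignment, and counting those that overlap the gene and 5000 bp on each side gave another order of lost and gained at some of the genes named next. It turned, in lost and gained regions, at Ikzf1 (6 and 8), Bach2 (13 and 16), Ep300 (1 and 2), Hoxb7 (2 and 3), Thbs1 (0 and 1), F2rl2 (1 and 0) and Il6 (1 and 0). Equal numbers were found at Gfi1, Ly86, F13a1, Il1rl1, Stat3, Myb and Notch1. For Slc4a1 and, Ank1 aside, the genes with the largest excess over all genes, no count by overlap is given. Neither the count by overlap nor the nearest start of any gene turned the order of a list, with equal numbers for the DNA methylation list by overlap (29 and 29) and the inflammatory list by any start (35 and 35). The lists are therefore read by shares of regions, against 26.1% lost and 29.2% gained over all genes. Regions near 1 gene are not independent, and the intervals do not allow for this.

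With all peaks, erythroid genes held the largest lost share of the 14 lists. Of their 152 regions, 50 were lost, 21 gained and 81 retained, so 38.2% (29.8% to 47.1%) of Ep300Δ/Δ regions were lost and 20.6% (13.2% to 29.7%) of Ep300Δ/ΔTet2-/- regions were gained. Among the 17 genes with a region, 8 had more lost than gained regions, 1 had more gained and 8 had equal numbers. Over all 15373 genes with a region, these numbers were 4726, 5930 and 4717. H3K4me1 was present at 92 of the 152 regions in WT, 131 in Ep300Δ/Δ, 90 in Tet2-/- and 102 in Ep300Δ/ΔTet2-/- cells. These were 60.5%, 86.2%, 59.2% and 67.1%, against 70.2%, 76.7%, 72.0% and 80.0% over all genes. A region entered only through a peak in Ep300Δ/Δ or Ep300Δ/ΔTet2-/- cells, which keeps the WT and Tet2-/- counts low here and at every gene described next. Of the 50 lost regions, 23 (46%) had a peak in neither WT nor Tet2-/- cells, against 34.4% of lost regions over all genes. The order turned among the confidently called peaks, with 21 lost and 24 gained erythroid regions, a ratio of 1.14 against 2.26 over all genes. The lost share there was 36.8%, with an interval (24.4% to 50.7%) that included the 25.2% over all genes. From WT to Tet2-/- cells the erythroid list had 39.0% (30.1% to 48.4%) lost and 28.7% (20.1% to 38.6%) gained, against 28.5% and 26.5% over all genes, and the H3K4 methylation enzymes and demethylases had a larger lost share (40.6%).

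Ank1, the gene of the ankyrin that ties the red cell membrane to its skeleton (ENSMUSG00000031543.18, chr8:22974844-23150497, plus strand), held 18 of the 50 lost regions, with 2 gained and 12 retained. Its regions numbered 13 in WT, 30 in Ep300Δ/Δ, 12 in Tet2-/- and 14 in Ep300Δ/ΔTet2-/- cells. By overlap with the gene, 18 regions were lost and 1 was gained. Without Ank1 the list had 32 lost and 19 gained regions, 31.7% (22.8% to 41.7%) and 21.6% (13.5% to 31.6%). Rhag had 5 lost, 1 gained and 1 retained region, present 3, 6, 4 and 2 times in WT, Ep300Δ/Δ, Tet2-/- and Ep300Δ/ΔTet2-/- cells. Zfpm1, the gene of the GATA1 partner FOG1, was the exception by nearest start, with no lost, 5 gained and 12 retained regions. By overlap with the gene, 5 erythroid genes had more gained than lost regions, 10 had more lost and 2 had equal numbers. Outside the rule for named genes and chosen after its values were seen, Slc4a1, the gene of the band 3 anion exchanger, had 4 lost and no gained regions. Erythroid regions outside promoters held AGATAA within 100 bp of the summit in 3 of 26 lost, 0 of 14 gained and 2 of 42 retained. Within 250 bp it was in 10 of 26 lost erythroid regions (38.5%, 20.2% to 59.4%), 6 of 12 lost neutrophil regions (50%, 21.1% to 78.9%) and 30.8% of all lost regions. The number of erythroid cells among the Lin- cells was not measured here, and its part in these counts was not tested.

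Neutrophil and granule genes had more gained than lost regions, with shares whose intervals included those over all genes. They had 22 lost, 46 gained and 82 retained regions, 21.2% lost (13.8% to 30.3%) and 35.9% gained (27.7% to 44.9%). Gained regions outnumbered lost ones at 11 of 20 genes and were fewer at 4, against 5930 and 4726 of 15373 over all genes. Their 150 regions had H3K4me1 at 128 in WT, 104 in Ep300Δ/Δ, 123 in Tet2-/- and 128 in Ep300Δ/ΔTet2-/- cells. Mpo had no lost, 8 gained and 4 retained regions, at 9, 4, 9 and 12 in the same order of genotypes. Gfi1, a repressor needed for neutrophil development, had 2 lost, 6 gained and 17 retained regions. Fcnb, the gene of ficolin B of granulocyte precursors, was among the exceptions with 7 lost and 2 gained regions, at 14, 13, 10 and 8, and Ltf, the gene of lactoferrin, had 3 lost and none gained. Among strong peaks the order depended on how strength was defined, with 7 lost and 5 gained regions above the median fold enrichment, and 7 lost and 31 gained among the confidently called peaks. From WT to Tet2-/- cells the list had 26.1% lost and 16.8% gained (11.1% to 23.9%), against 28.5% and 26.5% over all genes.

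With all peaks, monocyte and dendritic genes had a lost share below that of all genes. They had 54 lost, 96 gained and 248 retained regions, 17.9% lost (13.7% to 22.7%) and 27.9% gained (23.2% to 33.0%). More gained than lost regions were found at 13 of 20 genes, against 5930 of 15373 over all genes. Among the confidently called peaks the lost share was 20.7%, with an interval (14.5% to 28.0%) that included the 25.2% over all genes. There 31 regions were lost and 104 gained, a ratio of 3.35 against 2.26 over all genes. Id2, an inhibitor of E proteins needed for several dendritic cells, had 12 lost and 20 gained regions, and Ly86, the gene of MD-1, had 4 and 12. F13a1, the gene of a coagulation factor XIII subunit found in monocytes, had 7 lost and 3 gained regions, and Ccr2, a chemokine receptor of monocytes, had 3 and 2.

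Hoxa and Hoxb genes, which are active in stem cells and shut off with differentiation, had 6 lost, 22 gained and 39 retained regions, 13.3% lost (5.05% to 26.8%) and 36.1% gained (24.2% to 49.4%), both with intervals that included the shares over all genes. H3K4me1 was present at 41 of the 67 in WT, 45 in Ep300Δ/Δ, 44 in Tet2-/- and 61 in Ep300Δ/ΔTet2-/- cells. Hoxb9 had 1 region in each of the first 3 and 5 in Ep300Δ/ΔTet2-/- cells, and Hoxa13 had 3, 1, 1 and 4. By nearest start Hoxb7 had 2 lost regions and none gained and Hoxa11 had 1 and none, whereas by overlap they had 2 lost and 3 gained, and 2 lost and 1 gained. Among the confidently called peaks 8 Hoxa and Hoxb regions were lost and 19 gained, 36.4% lost (17.2% to 59.3%) against 25.2% over all genes, and a ratio of 2.38 against 2.26. The genes of a cluster lie side by side, so their regions share neighbors.

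Regulators of stem and progenitor cells stood near the background as a list, with 151 lost, 186 gained and 461 retained regions (24.7% lost, 28.7% gained), while single genes moved far in both directions. Cdk6, a kinase that drives progenitors into the cell cycle, had 8 lost, 19 gained and 23 retained regions, present at 37 in WT, 31 in Ep300Δ/Δ, 43 in Tet2-/- and 42 in Ep300Δ/ΔTet2-/- cells. Erg, an ETS factor of stem cells, had 6 lost, 15 gained and 32 retained regions, at 40, 38, 43 and 47. Myc, a driver of growth, had 19 lost, 10 gained and 24 retained regions, at 27, 43, 29 and 34. Cd34, the gene of a progenitor surface antigen, had 11 lost, 6 gained and 14 retained regions, at 16, 25, 22 and 20. Myb, a transcription factor of progenitor growth, had 6 lost, 11 gained and 33 retained regions, at 45, 39, 41 and 44.

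Megakaryocyte and platelet genes had 41 lost and 46 gained regions (27.5% and 29.9%), close to the background. Vwf, the gene of von Willebrand factor, had 7 lost and 1 gained region, and Thbs1, the gene of thrombospondin of platelet granules, had 9 and 5. F2rl2, the gene of a thrombin receptor, had 5 lost and 8 gained regions, and Itgb3, an integrin of platelets, had 2 and 5. B-lymphoid genes had 36 lost and 42 gained regions (27.3% and 30.4%). Ebf1 and Pax5, which specify B cells, had 0 lost and 4 gained, and 1 lost and 4 gained. Foxo1 had 9 and 6, and Bach2 15 and 13, an order that turned by overlap. T-lymphoid genes had 44 lost and 52 gained regions (25.6% and 28.9%). Satb1, a chromatin organizer of thymocytes, had 3 lost and 11 gained regions, and Tcf7, a factor of early T cells, had 1 and 5. Ets1 stood on the other side with 16 lost and 6 gained regions, and Ikzf1, the gene of Ikaros, had 7 and 5 by nearest start alone. Basophil, mast cell and eosinophil genes had 24 lost and 27 gained regions (25.5% and 27.8%), among them Il4 with 0 and 3, Ccr3 with 3 and 5, Il1rl1 with 4 and 0, and Mitf with 8 and 5.

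**Figure D5:**
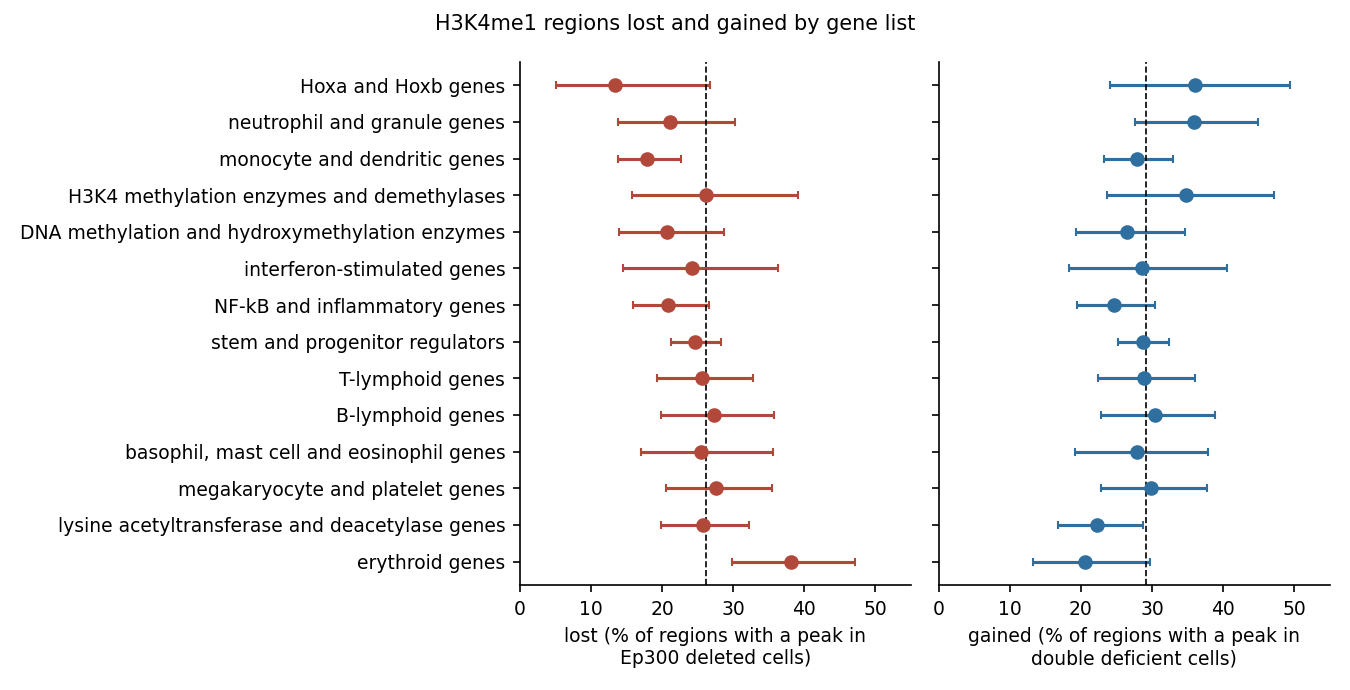
Percent of Ep300Δ/Δ regions lost (left) and of Ep300Δ/ΔTet2-/- regions gained (right) for the regions nearest to the genes of 14 lists, ordered by gained per lost region. Points are shares, lines are exact 95% intervals and dashed lines are the shares over all genes (26.1% and 29.2%). With all peaks, erythroid genes have the largest lost share (38.2%) and Hoxa and Hoxb genes the smallest (13.3%). Among confidently called peaks, which are not drawn, these shares are 36.8% and 36.4%, and H3K4 methylation enzymes and demethylases have the largest (37.9%). The intervals of all 3 include the 25.2% over all genes in that setting.

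Among genes that act on DNA methylation and hydroxymethylation, 26 regions were lost, 36 gained and 100 retained (20.6% lost, 26.5% gained). Tet2 itself had 3 lost, 9 gained and 17 retained regions, at 23 in WT, 20 in Ep300Δ/Δ, 20 in Tet2-/- and 26 in Ep300Δ/ΔTet2-/- cells. Tet3 had 3 lost and 7 gained regions, Tet1 had 6 and 3, and Uhrf2 had 2 and 1. Lysine acetyltransferase and deacetylase genes also had fewer gained than lost regions with all peaks, at 53 lost, 44 gained and 153 retained (25.7% lost, 22.3% gained). That order turned among strong peaks, with 22 lost and 49 gained regions among the confidently called peaks, and 9 and 13 above the median fold enrichment. Crebbp, the gene of CBP, was its exception, with 2 lost, 8 gained and 9 retained regions, at 7, 11, 8 and 17 in the 4 genotypes. Ep300 had 6 lost, 3 gained and 6 retained regions by nearest start, at 8, 12, 8 and 9, and 1 lost and 2 gained by overlap. Hdac5, a class II deacetylase, had 4 lost regions and none gained, and Kat2b, the gene of PCAF, had 4 and 1. H3K4 methylation enzymes and demethylases had 16 lost and 24 gained regions (26.2% and 34.8%). Kdm5b, a demethylase of H3K4, had 1 and 5, Wdr5, a subunit of the methyltransferase complexes, had 1 and 4, Kmt2a had 3 and 1, and Kdm1a had 5 and 3.

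Inflammatory genes had lost and gained shares below those of all genes, both with intervals that included the share over all genes. The NF-kB and inflammatory list had 50 lost, 62 gained and 190 retained regions, 20.8% lost (15.9% to 26.5%) and 24.6% gained (19.4% to 30.4%). Stat3 had 2 lost and 7 gained regions and Il6, a cytokine target of NF-kB, had 3 and 7. Tnfaip3, a brake on NF-kB, had 12 and 8, and Ifngr1, a receptor of interferon gamma, had 7 and 3. Interferon-stimulated genes, of interest because all mice received poly(I:C), had 16 lost and 20 gained regions (24.2% and 28.6%). Mx1 had 1 and 3, Ddx58 had 3 and 1, and Ifit1 had 2 and 1. Notch1, a receptor in lymphoid fate, had 3 lost, 6 gained and 17 retained regions, and Dntt, the gene of terminal transferase, had 2 lost, 2 gained and 9 retained.

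Over all genes, the largest excess of gained regions was at Sipa1l1 (chr12:82169320-82451786), a regulator of Rap GTPases, with 5 lost, 25 gained and 37 retained regions. Lpp had 10 lost and 29 gained regions, Fut8, the gene of the core fucosyltransferase, had 6 and 22, Itsn1, a scaffold of endocytosis, had 4 and 20, and Med13l, a subunit of the Mediator kinase module, had 8 and 23. H3K4me1 at Lpp was present at 30 regions in WT, 31 in Ep300Δ/Δ, 40 in Tet2-/- and 50 in Ep300Δ/ΔTet2-/- cells. The largest excess of lost regions was at Cdyl (chr13:35659833-35874063), a chromodomain corepressor, with 23 lost, 6 gained and 25 retained regions. Ank1 and Rgs12, a regulator of G protein signaling with 17 lost and 1 gained region, came next. Max, the dimer partner of MYC, had 20 and 5, and Cd24a, the gene of a surface antigen of B-cell and erythroid precursors, had 18 and 3. The counts in WT, Ep300Δ/Δ, Tet2-/- and Ep300Δ/ΔTet2-/- cells were 25, 30, 22 and 14 at Rgs12 and 41, 45, 39 and 30 at Cd24a. These genes have many regions each, and genes with more regions can reach a larger excess.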

How the data were processed

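ChIP-Seq peak lists of H3K27ac, H3K4me1 and H3K4me3 were used, 12 in all, and the H3 and H3K27me3 samples were not analysed here. Per the methods and the submitters' processing notes, the authors used cutadapt 1.15 for trimming, BWA 0.7.13 for alignment to mm10 and Picard for duplicates, filtered reads by mapping quality and the mm10 blacklist, and took the MACS2 2.1.1.20160309 narrow peaks shared by pseudo-replicates, with H3 as background. A Drosophila spike-in was added, and the lists carry no scaling by it. The values deposited by the authors for each peak are a fold enrichment over H3, used only to rank peaks within 1 list, and a −log10 q, used only to filter. Of the autosomal H3K4me1 peaks, 4277 of Ep300Δ/Δ and 2590 of Ep300Δ/ΔTet2-/- cells have q above the stated 0.05. The mark of these samples was taken from the antibody and the deposited lists, since their titles spell it H3Kme1. The methods call the reads paired-end and the labels single-end.

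Lists were merged and compared by overlap of at least 1 bp on the 19 autosomes. GENCODE M21 gave transcript starts, and motifs were searched in the GRCm38 sequence around the summit of the peak with the highest fold enrichment in a region. Members, gene lists and motifs were chosen with earlier results of these data known. Genes were named by rule: for each of the 14 lists, the 2 genes with the largest excess of gained and the 2 with the largest excess of lost regions, 5 genes in each direction over all genes, and Tet2, Ep300, Myb, Notch1 and Dntt. Some genes that the rule names are not reported here. Of the 264 listed genes, 263 were in the annotation and 248 had a region. Named regions were the 4 strongest of each direction that went the same way from WT to Tet2-/- cells, lay over 1000 bp from the other list and were outside chromosome 18. Of these, 2 per direction are described. Alternatives changed the overlap, the peak threshold, the list size and the promoter width. Tools were pysam 0.24.0 for sequences, scipy 1.17.1 for intervals, matplotlib 3.10.9 for plots, and pandas 2.3.3 and numpy 2.4.6 under Python 3.11.15. Overlap code was checked on simulated lists against bedtools 2.31.1, with equal results for 20 of 20 pairs of lists and 372 of 372 nearest starts.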

Additional observations from a re-analysis of the deposited data

Results flagged for a closer look

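The number of autosomal H3K4me1 peaks moved in opposite directions with the loss of Tet2 on the 2 backgrounds. It changed by -9442 from WT (106260) to Tet2-/- cells (96818) and by 2412 from Ep300Δ/Δ (89936) to Ep300Δ/ΔTet2-/- cells (92348). With 1 library per genotype the difference between these changes was not tested. The number of confidently called peaks (−log10 q of at least 5) was larger in the Tet2-deficient list of each pair, at 64503 in WT and 73732 in Tet2-/- cells, and at 40641 in Ep300Δ/Δ and 52821 in Ep300Δ/ΔTet2-/- cells.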

How the results depend on the processing

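No paired analysis was possible because each genotype and mark has 1 library, and leaving out a replicate was not possible for the same reason. In the order lost, gained and retained, the percent of regions with H3K27ac (Ep300Δ/Δ list for lost and retained, Ep300Δ/ΔTet2-/- list for gained) was 7.28, 6.78 and 18.6 when an overlap had to cover 50% of the region, 5.87, 5.59 and 15.6 when peaks within 500 bp counted as overlapping, and 11.4, 10.4 and 26 when only peaks at or above 5 on the −log10 q scale were used. It was 8.02 for lost and 6.78 for gained regions above the median fold enrichment, and in 2 settings chosen after seeing the data it was 18.3 for retained regions with q under 0.05, and 9.37 and 8.04 for regions strong in 1 list and without any peak in the other. The percent of gained and lost regions with a Tet2-/- H3K4me1 peak was 58.5 and 49.5 (50% overlap), 50.5 and 40.9 (500 bp), 81.6 and 76.3 (−log10 q), 64.4 and 53.1 (above the median fold), 56.7 and 47.4 (q under 0.05), and 69.4 and 62.0 (strong in 1 list), and 46.6 of lost regions with lists of equal size. The share of Tet2-/- among regions in only 1 of WT and Tet2-/- cells was 40.1% of lost (500 bp), 65% of gained (−log10 q), 67.1% of gained (above the median fold), and 67.0% of gained and 37.8% of lost regions (strong in 1 list). Lost regions numbered 14168 (500 bp), 9711 beside 28891 retained and 21969 gained (−log10 q), 6648 beside 7991 gained (above the median fold), and 3414 beside 7527 gained (strong in 1 list). When both lists were limited to the same number of peaks, 22861 regions were lost and 24211 gained. In each setting with values for both, gained regions outnumbered lost ones, retained regions had the most H3K27ac, and the Tet2-/- share was higher at gained than at lost regions. Promoters held 24.2%, 21.7% and 32.6% of lost, gained and retained regions at a width of 1000 bp, and 29.8%, 24.7% and 35.2% with protein-coding starts only. Of the gene lists, the erythroid ratio of gained to lost regions passed 1 with −log10 q of at least 5 (24 gained, 21 lost), where the ratio over all genes was 2.26, and so did the acetyltransferase and deacetylase ratio (2.23). Above the median fold the latter was 1.44, and 5 ratios fell below 1: neutrophil 0.714, B-lymphoid 0.667, T-lymphoid 0.688, and H3K4 enzymes and interferon-stimulated genes 0.857 each. The neutrophil ratio was 4.43 with −log10 q of at least 5 and 2.5 for regions strong in 1 list, and the acetyltransferase and deacetylase ratio was 2.75 there. Over all genes the ratios in these 2 settings were 2.26 and 2.20. Basophil, mast cell and eosinophil genes had a ratio of 0.8 outside promoters, and stem and progenitor regulators 0.795 at promoters, against 1.26 and 1.03 over all genes. Outside promoters the small differences at CTCF and CRE turned within 250 bp, to 8.71% of gained and 8.16% of lost regions and to 0.411% and 0.386%, with overlapping intervals. Lost regions kept the highest GATA share within 250 bp (30.8% lost, 24.5% gained, 25.5% retained), whereas the small difference between gained and retained regions turned. The causes of these shifts were not tested. Peak lists hold no depth, so no limit of detection could be given.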

Other observations

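Density of CpG, the substrate of TET enzymes, was compared between the classes outside promoters. The lost share of Ep300Δ/Δ regions went from 31.7% (30.3% to 33.1%) in windows around the summit without CpG to 22.6% (20.2% to 25.2%) in windows with over 4 CpG per 100 bases, and the gained share of Ep300Δ/ΔTet2-/- regions from 35.9% (34.5% to 37.3%) to 27.6% (25.1% to 30.2%). Both shares were lower at high density, and the number of gained regions per lost region was between 1.21 and 1.32 in all 5 classes of density. Lost regions with a WT but no Tet2-/- peak outside promoters had H3K27ac in WT cells at 6.75% (5.79% to 7.82%) and in Ep300Δ/Δ, Tet2-/- and Ep300Δ/ΔTet2-/- cells at 1.91%, 2.32% and 1.46%. Gained regions with a Tet2-/- but no WT peak had it at 2.71%, 1.24%, 2.83% and 2.17% in WT, Ep300Δ/Δ, Tet2-/- and Ep300Δ/ΔTet2-/- cells.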
